A study of Mus musculus with 8 samples.

Results

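The 10 genes described here make, desaturate and lengthen fatty acids. They comprise the stearoyl-CoA desaturases Scd1, Scd2, Scd3 and Scd4, the fatty acid desaturases Fads1, Fads2 and Fads3, the fatty acid synthase Fasn, and the elongases Elovl5 and Elovl6. They were selected by name on results already measured in these libraries, among them the difference between exposures, so their differences between exposures are given as a description. All 10 were among the 27179 genes counted and among the 14966 that passed the filter on low counts.

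RNA-seq was performed on neonatal cardiomyocytes (NCMs) isolated from newborn male C57Bl/6 J mice on the day of birth. The dams had breathed either filtered air (FA) or diesel exhaust (DE) from embryonic day 0.5 to 17.5. The deposited table held 4 FA and 4 DE libraries, each from the heart of 1 neonate. The groups differ by the exposure of the dam and, in part, by a prefix in the sample names. The digested hearts were plated briefly with Ara-C, an inhibitor of proliferation, so that fibroblasts stuck to the dish, and the unattached cells were collected, which may leave some non-myocytes among them. The libraries are identified below by the number in their labels. All 4 FA libraries and DE 1 and DE 7 carried the prefix 11 in their sample names, while DE 3 and DE 5 carried the prefix 12, whose meaning the labels do not give.

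Fatty acid synthase assembles palmitate from malonyl-CoA, and Elovl6 extends palmitate to stearate. The Scd enzymes then place the first double bond in these saturated chains, giving palmitoleate and oleate for membrane lipids and triglycerides. Polyunsaturated fatty acids take another route, in which the essential dietary fatty acids are desaturated by Fads2, elongated by Elovl5 and desaturated again by Fads1 to give arachidonic and eicosapentaenoic acid. In the mouse, Scd4 is the isoform known from the heart, Scd1 is best known from liver and fat, Scd2 from brain and developing tissues, and Scd3 from skin and the Harderian gland.

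Libraries held from 17943024 to 39839737 counts. Levels are in CPM, the counts of a gene relative to the scaled total of its library, with TMM factors, which correct for differences in composition between libraries. A gene was called when the adjusted p of edgeR's quasi-likelihood test over all genes was 0.05 or less and the higher group exceeded the lower by at least 25%. With these criteria 868 genes were called between DE and FA, 5.80% of those tested. Of these, 536 were higher in DE (3.58%) and 332 lower (2.22%). The defining myocyte genes were abundant in both groups, with the summed level of 10 cardiomyocyte markers at 75122 to 80535 CPM in FA and 64193 to 74659 CPM in DE. Among them Myh6 was called lower in DE (means of 23299 and 14622 CPM in FA and DE) and Myh7 higher (10022 and 14494 CPM), and 8 were not called. The 7 fibroblast markers summed to 1722 to 3029 CPM in FA and to 3221 to 5233 CPM in DE. Col1a1 and Dcn were called higher in DE among them, and their median log2 fold change was 0.64. Of 9 adipocyte markers, 6, including Adipoq, Lep and Plin1, did not pass the filter. Of the other 3, Fabp4, which endothelial cells express too, had means of 318 CPM (FA) and 379.8 CPM (DE) and was not called, Ucp1 had 0.619 and 1.02 CPM and was not called, and Cidea was called lower (16.4 and 8.61 CPM). Of 8 hepatocyte markers, Ahsg (3.30 and 5.50 CPM), Apoa1 (0.889 and 1.86 CPM) and Ttr (0.559 and 0.528 CPM) passed the filter and were not called, the defining marker Alb did not pass it, and Serpina1a had 0 counts. In bulk RNA, fewer cells of a type and less RNA per cell cannot be told apart, and the part of these marker differences in the levels below was not tested.

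Of the 10 genes, Scd1, Fads1, Fads2 and Elovl6 were higher in DE and Scd4 was lower, while Scd2, Scd3, Fads3, Fasn and Elovl5 were not called. The 5 calls compare with 5.80% of all genes, the 4 higher ones with 3.58% and the 1 lower one with 2.22%, and since the genes were selected on this contrast nothing can be read from that difference. Between the groups, the levels of 6 genes, the called ones and Scd2, did not overlap, as was the case for 14.7% of all genes. The median log2 fold change was 0.34 over the 10 genes and 0.00 over all genes tested.

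**Figure D1:**
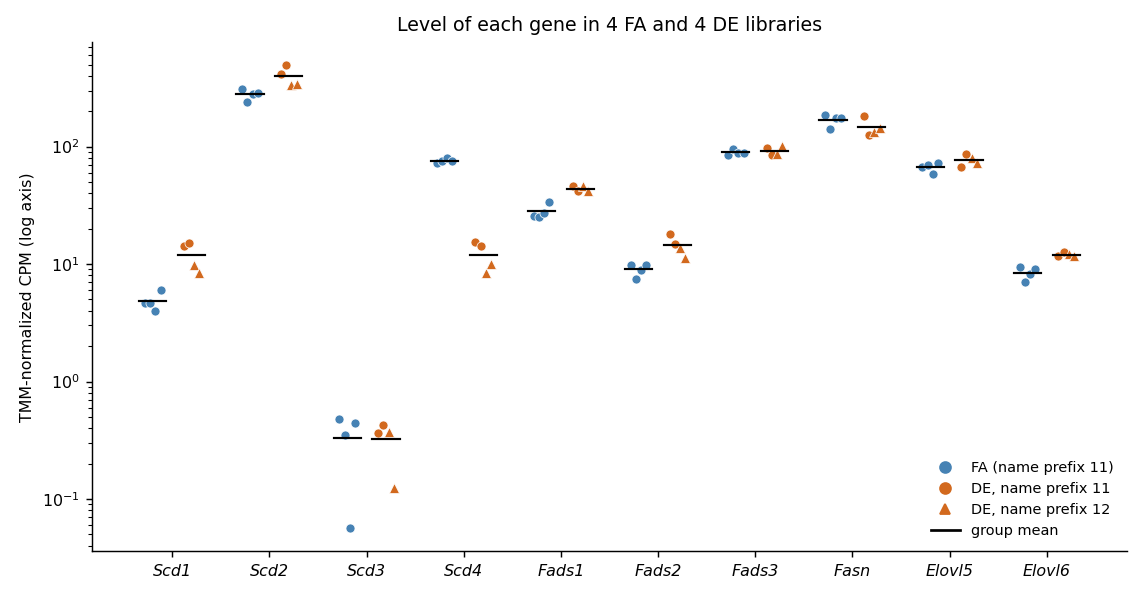
TMM-normalized CPM on a log axis of each gene in the 4 FA (blue) and 4 DE (orange) libraries, with triangles for the DE libraries of prefix 12 and bars for group means. Scd4 fell from a mean of 75.8 to 12.0 CPM, while Scd1, Fads1, Fads2 and Elovl6 sat higher in every DE library than in any FA library.

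The 4 Scd genes lie side by side on chromosome 19 and code for closely related enzymes. On GRCm38.p6, Scd3 occupies chr19:44203288-44244016, Scd2 chr19:44293676-44306864 and Scd4 chr19:44333326-44346743, all on the plus strand, and Scd1 chr19:44394450-44407709 on the minus strand. Their coding sequences were 83.76% (Scd2 and Scd4) to 91.46% (Scd1 and Scd3) identical, so it matters how far reads can be assigned to one of them. The most similar stretch of 60 coding bases, which covers one of the histidine boxes that bind the iron of the active site, is shown for the 4 genes, with capitals at bases unlike Scd2.
Scd1 (chr19:44401827-44401886, minus strand): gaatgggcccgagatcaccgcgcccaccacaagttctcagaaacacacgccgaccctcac
Scd2 (chr19:44299621-44299680, plus strand): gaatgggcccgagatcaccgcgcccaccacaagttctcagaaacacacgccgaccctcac
Scd3 (chr19:44235783-44235842, plus strand): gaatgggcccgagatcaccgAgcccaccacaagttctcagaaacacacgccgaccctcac
Scd4 (chr19:44338922-44338981, plus strand): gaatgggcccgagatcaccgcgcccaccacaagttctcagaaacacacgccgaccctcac

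A read that falls within these bases cannot separate Scd1, Scd2 and Scd4, and 59 of the 60 bases were the same in all 4 genes. The least similar stretch of 60 coding bases is shown in the same way, and there 30 of the bases were the same in all 4.
Scd1 (chr19:44403236-44403295, minus strand): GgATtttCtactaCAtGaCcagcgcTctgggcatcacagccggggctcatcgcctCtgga
Scd2 (chr19:44298040-44298099, plus strand): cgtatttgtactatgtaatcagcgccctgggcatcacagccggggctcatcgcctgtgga
Scd3 (chr19:44234223-44234282, plus strand): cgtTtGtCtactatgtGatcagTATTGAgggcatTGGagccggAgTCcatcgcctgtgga
Scd4 (chr19:44337501-44337560, plus strand): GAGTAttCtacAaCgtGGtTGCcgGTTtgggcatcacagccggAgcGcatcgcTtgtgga

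In this stretch Scd4 differed from Scd2 at 19 bases, Scd3 at 16 and Scd1 at 10, and a read there can be assigned. Over whole transcripts, exact matches between the genes were few. A window with any unlike base counted as distinct, so near matches are not part of the shares below. Of all 50-base windows of a transcript, 3.44% in Scd4, 3.79% in Scd2, 4.66% in Scd1 and 6.37% in Scd3 occurred unchanged in another Scd transcript. Among 100-base windows these shares were 0.53%, 0.896%, 2.64% and 2.54%.

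Scd4, the heart isoform, was the most changed gene of the 10. The FA libraries 2, 3, 4 and 6 held 73.0, 75.2, 79.7 and 75.5 CPM of Scd4. The DE libraries 1, 7, 3 and 5 held 15.5, 14.2, 8.38 and 9.95 CPM. All 4 DE libraries lay far below the lowest FA library, and the 4 FA libraries were close to each other, with a coefficient of variation of 3.68%. The mean fell from 75.8 ± 2.79 CPM (SD, n = 4) in FA to 12.0 ± 3.38 CPM (SD, n = 4) in DE, which is 6.35-fold lower. On the log2 scale the difference was -2.67 ± 0.18 (SE), with a 95% interval of -3.06 to -2.28.

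Scd1, the isoform of liver and fat, moved in the opposite direction from a much lower level. It stood at 4.63, 4.63, 3.95 and 6.00 CPM in FA libraries 2, 3, 4 and 6 and at 14.2, 15.2, 9.81 and 8.38 CPM in DE libraries 1, 7, 3 and 5. Every DE library was above every FA library, and the DE libraries with prefix 11 were the highest. Mean Scd1 rose to 11.9 ± 3.32 CPM in DE from 4.80 ± 0.860 CPM in FA (SD, n = 4 each). The log2 fold change was 1.30 ± 0.21 (SE), with a 95% interval of 0.84 to 1.76.

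Scd2 was the most abundant isoform. Its levels were 310.3, 242, 279 and 288 CPM in the FA libraries and 415, 491, 334 and 344 CPM in the DE libraries, in the same order. The groups did not overlap, although the lowest DE library was only slightly above the highest FA library. With means of 279.8 ± 28.5 and 396 ± 73.1 CPM (SD, n = 4 each) and a log2 fold change of 0.50 ± 0.14 (SE), Scd2 was not called. It was called with DESeq2, edgeR's likelihood ratio test and 4 other alternatives.

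Scd3, the skin isoform, was close to the limit of detection with 73 counts over all 8 libraries. Its level was 0.0564 to 0.481 CPM in FA and 0.125 to 0.426 CPM in DE, and the groups overlapped. The log2 fold change of -0.21 ± 0.49 (SE) was not called, and a difference of moderate size would not have been detectable at this depth.

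Because Scd1 and Scd4 are minor beside Scd2, the shared sequence was set against their levels. The Scd2 transcript shared 145 windows of 50 bases with Scd1, and its level per kilobase over that many bases would correspond to 7.44 CPM in FA and 10.5 CPM in DE, more than the FA level and close to the DE level of Scd1 itself. With 100-base windows the corresponding values were 2.46 and 3.48 CPM. How the authors' counting assigned such reads is not given in the sources used here, so the absolute level of Scd1 is uncertain. Relative to the counts of Scd2, those of Scd1 stood at 1.73% ± 0.325 in FA (range 1.41% to 2.09%) and 2.97% ± 0.408 in DE (2.44% to 3.42%, SD, n = 4 each). The part of shared sequence in the level of Scd1 was not tested. Scd4 shared 61 windows of 50 bases with Scd2, corresponding to 3.13 CPM in FA and 4.43 CPM in DE, below the Scd4 level in every library. It shared 0 windows of 100 bases.

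The make-up of the Scd transcripts thus differed between exposures far more than their sum. Per kilobase of exon, Scd4 contributed 30.6% ± 2.50 of the summed Scd level in FA libraries (27.6% to 33.4%) and 4.57% ± 0.737 in DE libraries (3.85% to 5.60%). The share of Scd2 was 68.0% ± 2.50 in FA and 92.2% ± 1.01 in DE. The share of Scd1 was 1.32% ± 0.238 and 3.09% ± 0.396 (SD, n = 4 in each group). For each of these 3 genes the shares in the groups did not overlap, as was already so for their levels. The shares in a library add up to the whole, so a lower share of Scd4 raises the others. They are not separate observations, and the genes were selected on this contrast. The ratio of Scd4 to Scd1, per kilobase, was 23.7 ± 4.54 in FA and 1.49 ± 0.222 in DE.

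**Figure D2:**
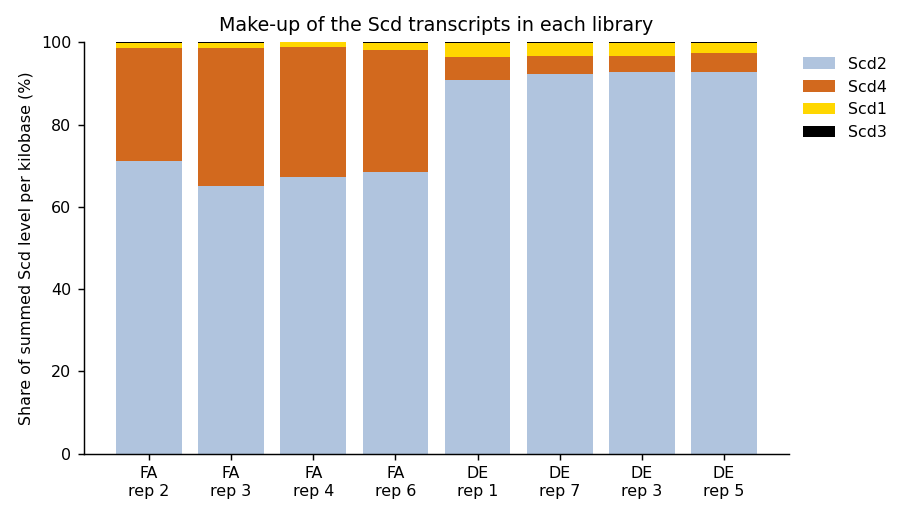
Share of each Scd gene in the summed Scd level per kilobase of exon (%), as stacked bars that start at 0, for the 8 libraries labelled by exposure and number. The Scd4 segment spans 27.6% to 33.4% of the FA bars and 3.85% to 5.60% of the DE bars.

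The summed level itself showed no called difference. Added over the 4 genes it was 361 ± 28.0 CPM in FA and 420.1 ± 79.0 CPM in DE, and per kilobase 75.3 ± 5.07 and 78.7 ± 14.9 (SD, n = 4 each), with overlapping groups. Entered as a single row into the fit over all genes, the sum had a log2 fold change of 0.22 ± 0.13 (SE, 95% interval -0.07 to 0.51). The upper end of this interval was close to the value of Scd2 alone.

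The Fads genes form a cluster of their own on chromosome 19, with Fads3 at chr19:10040855-10060113 and Fads1 at chr19:10182877-10196874 on the plus strand and Fads2 at chr19:10062765-10101503 on the minus strand. They are less alike than the Scd genes, with coding sequences that were 62.99% (Fads1 and Fads3) to 69.75% (Fads2 and Fads3) identical. Fads1, which makes the final desaturation on the way to arachidonic acid, was at 25.6, 25.4, 27.3 and 34.0 CPM in the FA libraries 2, 3, 4 and 6. In the DE libraries 1, 7, 3 and 5 it was at 45.9, 42.1, 45.9 and 41.5 CPM. All DE libraries exceeded all FA libraries. Mean Fads1 rose to 43.8 ± 2.42 CPM in DE from 28.1 ± 4.03 CPM in FA (SD, n = 4 each). The log2 fold change was 0.64 ± 0.11 (SE), with a 95% interval of 0.40 to 0.89.

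Fads2, which makes the initial desaturation of this route, was at 9.81, 7.52, 8.97 and 9.74 CPM in the FA libraries and at 18.0, 14.8, 13.6 and 11.2 CPM in the DE libraries. The lowest DE library again exceeded the highest FA library. Mean Fads2 rose to 14.4 ± 2.84 CPM in DE from 9.01 ± 1.06 CPM in FA (SD, n = 4 each), with a log2 fold change of 0.67 ± 0.16 (SE). The ratio of Fads1 to Fads2 per kilobase was 2.85 ± 0.360 in FA (range 2.37 to 3.17) and 2.83 ± 0.470 in DE (range 2.32 to 3.36, SD, n = 4 each). Within DE it was lower in both libraries with prefix 11 than in both with prefix 12, so the near-equal means do not show that the proportion was kept. Fads3, the third and least characterized gene of the cluster, was at 85.4, 94.7, 88.8 and 88.0 CPM in FA and at 97.6, 84.1, 86.1 and 101 CPM in DE. The groups overlapped and its log2 fold change of 0.05 ± 0.10 (SE, 95% interval -0.16 to 0.26) was not called.

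Fasn (chr11:120805958-120825166, minus strand), which makes palmitate, was at 185, 142, 175 and 174 CPM in the FA libraries and at 183, 125, 134 and 145 CPM in the DE libraries. DE 1 lay among the FA libraries and DE 3 and DE 7 below all of them. The log2 fold change of -0.20 ± 0.13 (SE, 95% interval -0.49 to 0.09) was not called. Elovl6 (chr3:129532386-129638495, plus strand), which acts on the product of Fasn, was at 9.38, 7.08, 8.30 and 9.00 CPM in FA and at 11.6, 12.6, 12.2 and 11.6 CPM in DE. The groups did not overlap, and the DE libraries were within a narrow range. Mean Elovl6 rose to 12.0 ± 0.469 CPM in DE from 8.44 ± 1.01 CPM in FA (SD, n = 4 each), with a log2 fold change of 0.50 ± 0.12 (SE).

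Elovl5 (chr9:77917365-77984519, plus strand), the elongase of polyunsaturated chains, was at 66.7, 70.3, 58.4 and 72.9 CPM in FA and at 66.9, 86.2, 79.8 and 72.5 CPM in DE. The groups overlapped and the log2 fold change of 0.19 ± 0.11 (SE, 95% interval -0.05 to 0.43) was not called. The elongases were 56.61% identical in coding sequence. Without FA 2, FA 3, FA 4, DE 7 or DE 3, 3 of the 10 genes were called, namely Scd4, Scd1 and Fads1. With 1 library left out, the log2 fold changes of the other called genes stayed at 0.54 to 0.78 for Fads2 and 0.43 to 0.56 for Elovl6. The calls over all genes fell at the same time, for example from 868 to 237 without FA 4 and to 268 without DE 3.

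**Figure D3:**
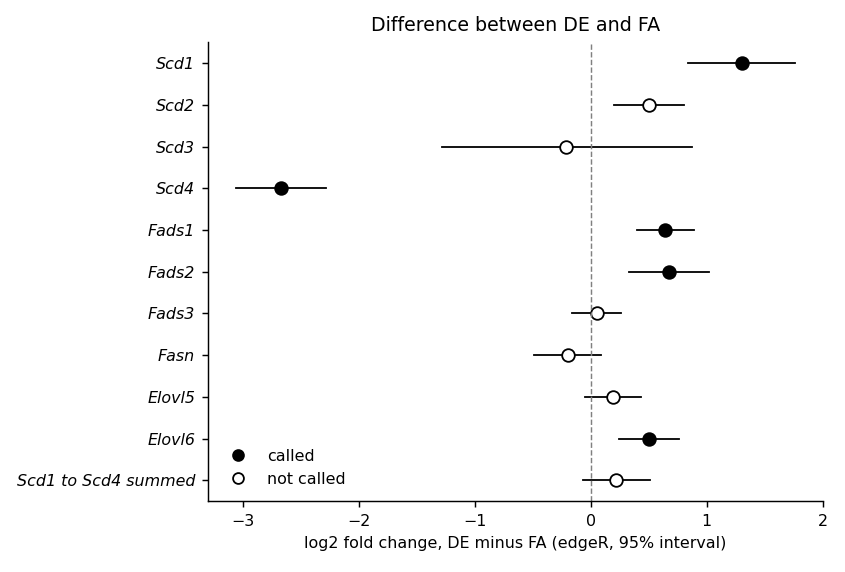
Log2 fold change (DE minus FA) of each gene and of the summed Scd counts, with 95% intervals from edgeR, and filled points for called genes. Scd4 stands at -2.67 and Scd1 at 1.30, while the sum of the 4 Scd genes stands at 0.22.

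The order of the genes could be compared per kilobase of exon. In FA libraries Scd2 led with 51.3 ± 5.22 CPM per kilobase. Fads3 (24.2 ± 1.06), Elovl5 (24.1 ± 2.27) and Scd4 (22.9 ± 0.845) followed in CPM per kilobase, with overlapping ranges. Fasn (16.8 ± 1.83), Fads1 (8.10 ± 1.16), Fads2 (2.86 ± 0.337), Elovl6 (1.38 ± 0.165), Scd1 (0.994 ± 0.178) and Scd3 (0.0935 ± 0.0541) came next (CPM per kilobase, SD, n = 4). Among these lower genes only the ranges of Elovl6 and Scd1, 1.15 to 1.53 and 0.818 to 1.24, overlapped. In DE libraries Scd2 led with 72.6 ± 13.4 CPM per kilobase, and Scd4 dropped from the fourth place to the seventh with 3.63 ± 1.02, within the range of Fads2 (4.58 ± 0.900). Scd1, at 2.46 ± 0.687 CPM per kilobase, stood next to Elovl6 (1.96 ± 0.0764), and their ranges overlapped.

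The prefix of the sample name gave a contrast within the DE group that was not used to select the genes. All FA libraries have prefix 11, so a difference between prefixes can be seen only among DE libraries, with 2 libraries of each. Libraries of the same prefix differed too. The mean chi-square per gene between 2 FA libraries was 5.37 (FA 2, FA 4) to 46.5 (FA 2, FA 3). In DE it was 17.1 and 22.3 within a prefix and 37.4 to 70.1 across prefixes. The contrast therefore cannot be told apart from other differences between libraries. In a fit of 3 groups over all genes, 1 of the 10 genes was called, beside 309 of all genes (2.06%). Scd4 was lower in the DE libraries with prefix 12, at a mean of 9.16 CPM against 14.8 CPM, with a log2 fold change of -0.70 ± 0.13 (SE, edgeR quasi-likelihood adjusted p = 0.0384). Scd1 had a nearly equal log2 fold change of -0.69 ± 0.18 (SE) that was not called (edgeR adjusted p = 0.0713), from 14.7 to 9.10 CPM. The values for Scd2, -0.42 ± 0.15 (SE, edgeR adjusted p = 0.126), and Fads2, -0.41 ± 0.17 (SE, edgeR adjusted p = 0.185), had the same sign. Fads1 (-0.01), Fads3 (0.04), Elovl5 (-0.01) and Elovl6 (-0.02) had log2 fold changes near 0 between the prefixes. With any 1 DE library left out, a prefix is left with 1 library, whose spread has to be assumed equal to that of the others. Scd4 was then not called, and its log2 fold change was -0.83 to -0.57. With all libraries, 4 of the 10 genes and 3490 of all genes had an unadjusted p under 0.05 in this contrast. Among libraries with prefix 11 alone, Scd4, Scd1, Scd2, Fads1 and Fads2 were called between DE and FA. Elovl6 was not called there, with a log2 fold change of 0.51 beside 0.50 over all 8 libraries.

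Other genes of fatty acid synthesis and its control were read from 6 lists of 76 genes, of which 73 were tested and 9 called (12.3%, beside 5.80% of all genes), 3 higher and 6 lower. Their median log2 fold change was -0.04. The lists were written with earlier results of these data known, so the share called is given as a description. Among 11 genes that supply acyl precursors and NADPH, 1 was higher and 3 were lower. The lower ones were Mlycd, which degrades malonyl-CoA (-1.24 ± 0.11, log2 fold change ± SE, edgeR adjusted p = 0.000175), Acacb, the acetyl-CoA carboxylase at mitochondria (-1.04 ± 0.11, edgeR adjusted p = 0.000686), and the malic enzyme Me1 (-0.69 ± 0.11, edgeR adjusted p = 0.0065). The mitochondrial citrate carrier Slc25a1 rose (0.63 ± 0.15, edgeR adjusted p = 0.0324), a call that was lost in 8 of 17 alternatives (log2 fold change 0.43 to 0.72 over all 17). The enzymes that feed Fasn in the cytosol had log2 fold changes of -0.07 ± 0.09 (Acly) and -0.02 ± 0.18 (Acaca), neither of them called.

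Among 10 tested genes of the other elongases and the elongation cycle, 1 was called. Hsd17b12, the reductase that all elongases share, rose (log2 fold change 0.45 ± 0.09, SE, edgeR adjusted p = 0.0183). Among 9 genes of electron supply and other desaturases, 1 was called. Cyb5a, the cytochrome b5 that hands electrons to the Scd enzymes, rose from 27.9 ± 4.03 to 41.6 ± 3.64 CPM (SD, n = 4 each, edgeR adjusted p = 0.0222). Of 17 alternatives, 4 lost the call of Hsd17b12 (log2 fold change 0.41 to 0.52) and 5 that of Cyb5a (0.47 to 0.67). Of 8 tested genes of mitochondrial fatty acid synthesis only Oxsm, its ketoacyl synthase, was called, at -0.50 ± 0.12 (log2 fold change ± SE, edgeR adjusted p = 0.0404). Its call was lost in 8 of 17 alternatives, with log2 fold changes of -0.58 to -0.39.

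Of 22 regulators of lipogenic genes, 0 passed both criteria in the edgeR quasi-likelihood fit, and 7 had an unadjusted p under 0.05, beside 3828 of all 14966 genes tested. DESeq2 and edgeR's likelihood ratio test each called 3, namely Nfya, Pparg and Srebf1, and limma-voom called 0. Library totals alone called Pparg and Srebf1, and the fit without DE 1 called Pparg. In the reported fit Pparg had a log2 fold change of 0.62 ± 0.17 (SE, edgeR adjusted p = 0.0565). Nfya had -0.33 ± 0.09 (SE, edgeR adjusted p = 0.0643). Srebf1, which encodes the SREBP transcription factor of fatty acid synthesis, had a log2 fold change of 0.35 ± 0.10 (SE, edgeR adjusted p = 0.0643), and was called in 3 of 17 alternatives. The values were 0.15 for Srebf2, 0.35 for the LXR gene Nr1h3, 0.07 for Nr1h2, -0.03 for Mlxipl (ChREBP), 0.30 for Insig1 and -0.25 for Ppara, on the log2 scale. Of 13 tested targets of LXR and SREBP outside the family, 2 were called, both lower. They were Lpcat3, which places polyunsaturated chains in phospholipids (-0.67 ± 0.09, edgeR adjusted p = 0.003), and Gpam, which starts glycerolipid synthesis (-1.29 ± 0.24, edgeR adjusted p = 0.0141).

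**Figure D4:**
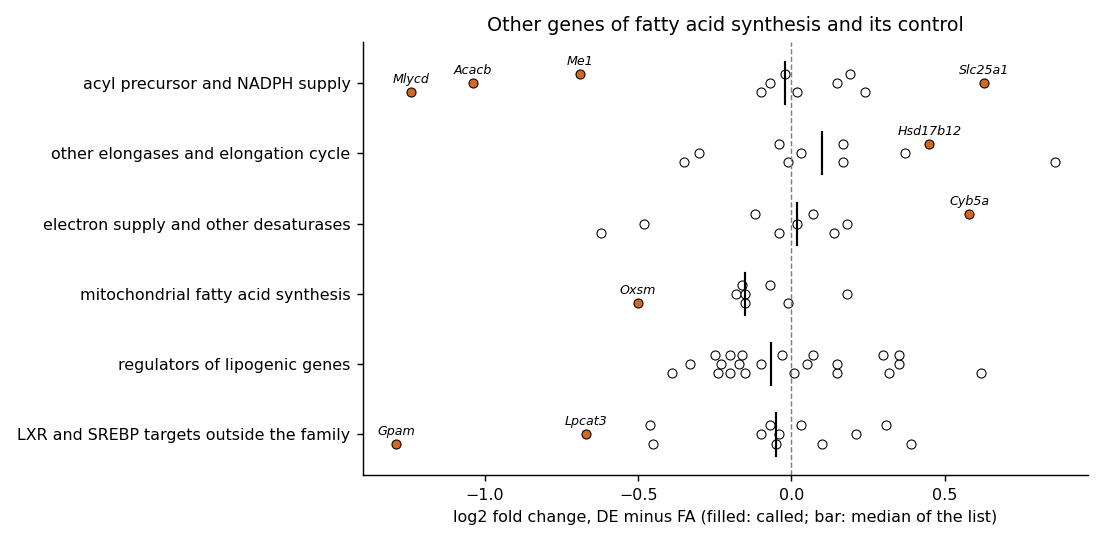
Log2 fold change (DE minus FA) of the 73 tested genes in 6 lists, with filled, named points for the 9 called genes, open points for the others and a bar at each list's median. The list medians lie between -0.15 and 0.10, and no regulator is filled.

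On the chromosome, the 5 nearest tested genes on each side of the Scd cluster had log2 fold changes of -1.44 to 0.04. The low end was 4930414N06Rik, at only 0.564 CPM in FA and 0.210 CPM in DE, and the next lowest was Slf2. Of the 10 neighbours, Slf2 was called lower (-0.66 ± 0.15, SE, edgeR adjusted p = 0.0317) and 9 were not called. Slf2 overlaps 4930414N06Rik, and reads of overlapping genes may not be separable. The nearest tested gene on each side, Bloc1s2 (log2 fold change 0.04 ± 0.13) and Sec31b (-0.24 ± 0.17), was not called. Genes that did not pass the filter may lie closer. Around the Fads cluster 2 of 10 neighbours were higher and 8 not called. Over all genes 3.58% were called higher and 2.22% lower, and with 10 neighbours a cluster these counts are given as a description. The higher neighbours were Incenp (0.55 ± 0.11, edgeR adjusted p = 0.0213) and Fen1 (0.54 ± 0.12, edgeR adjusted p = 0.0313), which lies just beyond Fads1 and overlaps Tmem258.

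**Figure D5:**
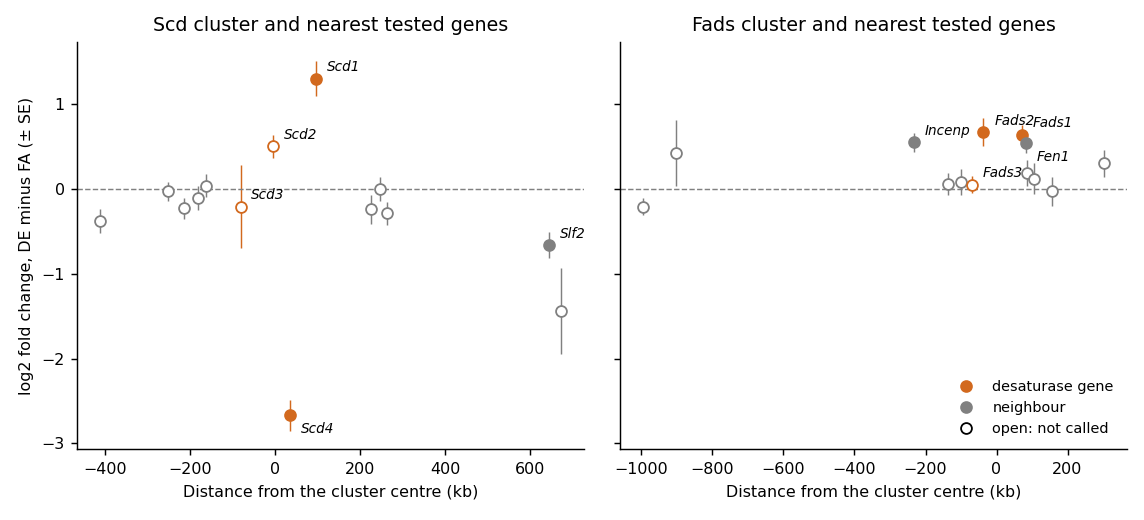
Log2 fold change (DE minus FA, error bars SE) against the distance from the cluster centre (kb) for the Scd and Fads genes (orange) and the 5 nearest tested genes on each side (grey), with filled points for called genes. Scd4 at -2.67 and Scd1 at 1.30 lie outside the range of -1.44 to 0.04 of the neighbours of the Scd cluster. The low end of that range is 4930414N06Rik, at means of 0.564 (FA) and 0.210 (DE) CPM.

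The RefSeq promoter table (GRCm38.p6, 250 bases before to 50 after the start site) had windows for Scd3, Scd4, Fads2, Fads3, Fasn, Elovl5 and Elovl6. They were searched on both strands for an SRE-1-like element (TCACNCCAC), an E-box (CACGTG), the box read by the factor NF-Y (CCAAT) and a DR1-like repeat (AGGNCANAGGNCA). Of all 32851 promoters, 1.24%, 7.15%, 37.4% and 0.381% held them. The letters of a CCAAT box occurred in 3 of the 7 windows, those of Fads3, Fasn and Elovl5, and 2 of the matches in Fasn overlap each other. None of these 3 genes was called between DE and FA. Scd3, Scd4, Fads2 and Elovl6 held none of the 4 motifs in this window, and the annotated starts of Scd4 and Fads2 differ by 234 and 243 bases between GENCODE and RefSeq. Elovl5 was the only gene with an E-box, and the 250 bases before its start are shown for that reason, with capitals at the E-box and at the CCAAT boxes, which read ATTGG on this strand.
Elovl5 (chr9:77917115-77917364, plus strand): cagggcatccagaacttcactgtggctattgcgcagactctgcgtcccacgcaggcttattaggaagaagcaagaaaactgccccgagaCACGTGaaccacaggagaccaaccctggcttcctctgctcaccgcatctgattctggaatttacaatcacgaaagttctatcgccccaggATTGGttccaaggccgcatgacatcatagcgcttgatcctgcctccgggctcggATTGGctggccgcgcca

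The genes whose levels followed Scd4 most closely over the 8 libraries were sought among 13361 genes averaging 1 CPM or more. They were Acsl1 (Pearson r = 0.994 of log2 CPM), Nwd1 (0.994), Abcd3 (0.989), Lrrc39 (0.988) and Cpt1a (0.987). For Fads1 they were Itm2a (r = 0.998), Rcn1 (0.994), Pla1a (0.993), Sdc4 (0.993) and Glipr2 (0.992). Fasn had less close companions, in Tmem131l (r = 0.953), Lrrc15 (0.937), Prlr (0.933), Mapkbp1 (0.933) and Nisch (0.933). These correlations over 8 libraries include the difference between exposures, so genes with a large difference between FA and DE correlate through that difference.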

How the data were processed

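RNA-seq was performed on NCMs of 4 FA and 4 DE neonates; the methods give 3 per group, and all 8 deposited libraries were used. The authors aligned reads to mm10 with TopHat, marked duplicates with Picard, and realigned with GATK. Fragments were assigned to genes by featureCounts, and what the authors deposited are these unnormalized counts, 1 row per Entrez gene. Whether strand was used, and what was done with reads matching several places, is not given in the sources used here.

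Genes were filtered with filterByExpr (minimum count 10), scaled by TMM and tested with edgeR 4.0.16 (glmQLFit, glmQLFTest; R 4.3.3), in a model of exposure alone. P-values were adjusted by Benjamini-Hochberg over the whole tested table. Calls needed an adjusted p of 0.05 or less and a difference of at least 25% of the lower group. The procedure was also run on simulated counts, whose outcome is not given here. Levels per kilobase used the exon bases of GENCODE genes (GRCm38). Patterns were compared on log2(CPM + 0.5). Nothing in the labels says that neonates came from separate litters, so p-values measure the spread between these samples. At totals of 17943024 to 39839737 counts, counting error is largest for Scd3.

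The 10 genes, the lists and the tests were chosen with earlier results of these data known. Named genes were the 10 genes, the called genes of each list (at most 6), 10 lipogenic genes named regardless of call, called neighbours, and the 5 genes most like Scd4, Fads1 and Fasn. Bloc1s2, Sec31b, the overlapping genes, Nfya and Pparg were named after their values were seen. Protein sequences were not used here; coding sequence identity was used in their place. Alternatives were DESeq2 1.42.0, the likelihood ratio test, limma-voom, relative log expression factors, library totals alone, no filter, the adjusted p alone, the prefix as a term, prefix 11 only and leaving out each of the 8 libraries.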

Additional observations from a re-analysis of the deposited data

How the results depend on the processing

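The 17 alternatives are compared for the 10 genes, the Scd sum and the pathway genes called in the reported fit or named regardless of call. None of the called genes among these changed direction between DE and FA. The adjusted p alone, 1 of the 17, gave the same values as the reported fit, since no call rested on the size criterion. Values that were not called crossed 0 for Scd3 (0.12 with the prefix as a term), Acaca (-0.16 to 0.28), Acly (-0.11 to 0.01), Mlxipl (-0.13 to 0.04) and Nr1h2 (-0.05 to 0.15), and between the prefixes for Fasn (-0.39 to 0.16), Fads1, Fads3, Elovl5 and Elovl6. Scd4 (log2 fold change -2.82 to -2.35), Scd1 (1.16 to 1.61) and Fads1 (0.60 to 0.75) stayed called in all 17, while Fads2 lost its call in 5 and Elovl6 in 8, and Scd2 gained one in 6. With the prefix as a term, Elovl6, Slc25a1, Cyb5a and Oxsm were not called. The number of the 10 genes called was 5, and 3 to 5 with 1 library left out. Of the pathway lists 9 genes were called, 15 with DESeq2, 15 with the likelihood ratio test, 5 with prefix 11 only and 5 to 12 with 1 library left out. Of all genes 868 were called, 1633 with DESeq2, 1603 with the likelihood ratio test, 448 with the prefix as a term, 260 with prefix 11 only and 237 to 1168 with 1 library left out. Between the prefixes within DE, 1 of the 10 genes was called, 2 with the likelihood ratio test, 2 without the filter and 0 to 0 with 1 DE library left out, where 1 prefix has a single library, so these 0 counts carry little weight (Scd4 at -0.83 to -0.57). Settings with prefix 11 only or with a library left out use fewer libraries. The calls over all genes did not fall in each of them, with 1168 without DE 1 and 237 without FA 4. Of the pairs of libraries within a group, FA 2 and FA 4 differed least. The cause of the changes in any setting was not tested. The sum of the Scd genes stayed uncalled (0.09 to 0.42; edgeR and DESeq2 adjusted p = 0.0796 to 0.633). Scd3 was removed by the filter in 5 alternatives. No paired analysis was possible because the groups share only 1 replicate number. Among 58 groups of values, 0 held a library standing apart by Dixon's criterion.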
